A study of Mus musculus with 6 samples.

Results

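The semaphorin, plexin, neuropilin, ephrin and Eph receptor genes were followed through the first days of induced hair regeneration in mouse dorsal skin by single-cell RNA-seq. Members were all rows of the gene table whose symbol begins with Sema, Efna, Efnb, Epha or Ephb and a digit, or with Plxn, a letter and a digit, together with Nrp1 and Nrp2. This gave 56 of 32285 rows, of which 53 are protein genes (20 semaphorins, 9 plexins, 2 neuropilins, 8 ephrins and 14 Eph receptors) and 3 are antisense RNAs to Plxna4. The cells came from wildtype FVB males aged 55 to 57 days, whose back skin was shaved and waxed (depilation) and taken at 0, 4 and 16 h and at 2, 4 and 6 d. Each time point is 1 library made with a droplet kit that counts transcript 3' ends, and each library holds equal cell numbers from 2 mice that cannot be told apart, so a difference between 2 time points has no replicate and is given with counting error only. Total depth was 72634390 to 112370376 UMIs (unique molecules counted) per library, and 49974 of 61031 barcodes were analysed as cells after limits on genes, mitochondrial share and predicted doublets. Of the analysed cells, 303 barcodes occurred in more than 1 library, among 49671 different barcodes.

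Semaphorins are secreted or membrane-bound guidance cues. Plexins are their main receptors, and secreted class 3 semaphorins usually signal through plexins joined to neuropilins, which also bind VEGF. Ephrins and Eph receptors are membrane proteins that signal in both directions at cell contacts and help to set tissue boundaries and cell position. In skin these families are known from axon and vessel guidance and from the sorting, adhesion and proliferation of keratinocytes.

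Cell types were named from marker genes after clustering without the members, and a name below means cells like that type. OB denotes outer bulge cells, the compartment that holds quiescent hair follicle stem cells, here split into OB1, OB2 and OB3. IB denotes inner bulge, IRS1 and IRS3 inner root sheath lineages, uHF upper hair follicle, IFE interfollicular epidermis and SG sebaceous gland, with B, SB and G for basal, suprabasal and granular. OB1 comprised 2 clusters, and 7 OB1 markers passed in one led by Krt24, Cck and Cd34 (the Cd34 cluster) and 5 in one led by Scrg1 and Mfap2 (the Scrg1 cluster). Clusters left unnamed were 2250 follicle cells with Prss35 and Col14a1 among their leading genes and 2412 cells led by T cell receptor genes such as Trdv4 and Tcrg-C1, called the Col14a1 and T-receptor clusters. No cluster was named endothelial, Schwann, mural or mast, so members in vessels and nerves were not covered. Levels are counts per 1000000 UMIs (CPM) over all cells of a type summed within a library, with mean ± SD over libraries and n = 6 unless another number is given.

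Promoter sequence is shown for the members on which the main contrasts turned. Sema3e and Sema3d had large opposite differences between bulge and epidermis, Plxna2 was highest in the bulge at 0 h, and Ephb6 was lowest at 4 h in every follicle and epidermal type compared. The sequences are the 250 bases before the transcription start in RefSeq (GRCm38.p6, all on the plus strand), written 5' to 3', and a window was found for 47 of the 56 members. Capitals mark exact matches, on either strand, to any of 6 motifs. These were the GC box, spelled GGGCGG, the box of TATA-binding protein, spelled TATAAA, and the core of the cAMP response element, spelled TGACGT. The others were the AP-1 site, spelled TGANTCA, the core bound by TCF and LEF factors, spelled CTTTGA, and the core bound by homeodomain proteins, spelled TAATTA. No matches overlapped in the windows shown.
Sema3e, chr5:14025026-14025275: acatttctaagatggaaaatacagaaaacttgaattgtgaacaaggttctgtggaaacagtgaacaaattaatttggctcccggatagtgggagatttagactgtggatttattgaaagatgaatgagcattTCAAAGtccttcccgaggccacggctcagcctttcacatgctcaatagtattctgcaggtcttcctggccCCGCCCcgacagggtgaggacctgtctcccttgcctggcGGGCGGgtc
Sema3d, chr5:12382916-12383165: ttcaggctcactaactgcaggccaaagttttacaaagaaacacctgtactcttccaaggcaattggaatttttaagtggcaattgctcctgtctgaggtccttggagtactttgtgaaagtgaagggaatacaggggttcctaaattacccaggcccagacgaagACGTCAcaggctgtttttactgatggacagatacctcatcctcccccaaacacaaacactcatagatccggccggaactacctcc
Plxna2, chr1:194619579-194619828: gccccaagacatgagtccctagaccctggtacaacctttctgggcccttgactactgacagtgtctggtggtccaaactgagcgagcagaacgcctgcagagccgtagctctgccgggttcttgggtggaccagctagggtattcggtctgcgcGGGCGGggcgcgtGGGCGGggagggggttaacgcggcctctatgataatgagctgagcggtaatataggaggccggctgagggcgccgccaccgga
Ephb6, chr6:41605261-41605510: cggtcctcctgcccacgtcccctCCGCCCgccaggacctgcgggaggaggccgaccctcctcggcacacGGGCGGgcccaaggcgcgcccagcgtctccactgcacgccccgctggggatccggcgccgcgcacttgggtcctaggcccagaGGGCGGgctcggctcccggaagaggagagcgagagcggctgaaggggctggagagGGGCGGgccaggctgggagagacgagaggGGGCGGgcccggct
The Ephb6 window held 5 GC boxes, those of Sema3e and Plxna2 held 2 each, and that of Sema3d held none. GC boxes were present in 32.7% of all 32851 windows of this length. The Sema3e window also held 1 TCF/LEF core, 118 bases before the start, and 13.8% of all windows held that motif. The Sema3d window held 1 cAMP response element core, 85 bases before the start, which was found in 6.47% of all windows. These matches describe letters in the reference and are not evidence of a bound factor.

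The members divided first by cell type. Of the 56, 37 reached a mean of 20 CPM in at least 1 type or cluster, 8 had fewer than 10 UMIs in all cells together, and 4 had no UMI (Epha6, Sema5b, Plxna4os2 and Plxna4os3). Summed over all members, whole libraries held 1158, 889.5, 1081, 992, 1053 and 1099 CPM in time order.

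**Figure D1:**
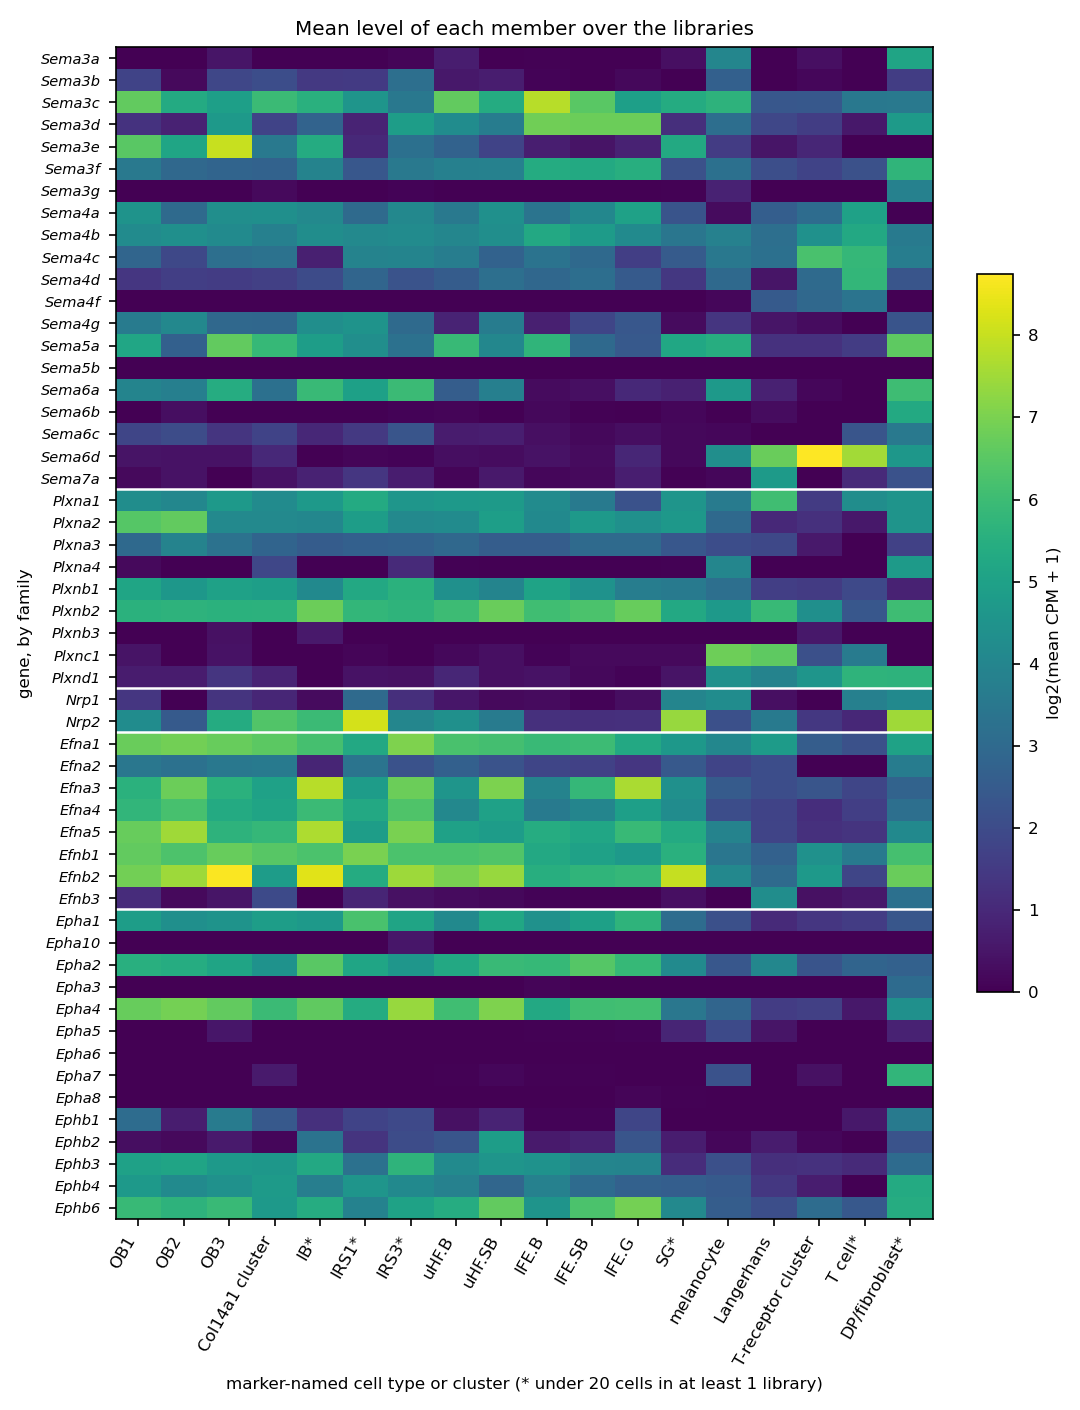
Mean level of each protein-coding member (rows, by family) in each cell type or cluster (columns), as log2(mean CPM + 1) over the libraries that hold the type. Sema3e and Efnb2 are brightest in OB3, Sema3d in the 3 IFE types, and Sema6d in the T-receptor cluster. Columns with an asterisk had fewer than 20 cells in at least 1 library.

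Among the secreted semaphorins, Sema3e, which binds plexin D1 directly, had its highest means in OB3 and OB1. It measured 259 ± 125 CPM in OB3, 90.5 ± 45.8 in OB1 and 34.2 ± 25.9 in OB2, and 0.651 ± 0.751 in IFE.B and 0.376 ± 0.321 in IFE.SB. It was also present in IB (41.1 ± 25.4) and SG (38.6 ± 31.5, up to 97.3 at 4 h), types with fewer than 20 cells in at least 1 library. Sema3d had the reverse layout, with 114 ± 51.6 CPM in IFE.B, 109.9 ± 48.9 in IFE.SB and 108 ± 39.3 in IFE.G against 1.45 ± 0.851 in OB1. OB3 stood apart from the other bulge cells here too, at 25.9 ± 15.5 CPM of Sema3d. Sema3c was highest in IFE.B, at 225 ± 65.8 CPM, and was also present in OB1 (99.7 ± 53) and uHF.B (98.5 ± 25.9). Sema3f was spread over IFE.B, IFE.SB and IFE.G at 40.3 ± 6.68, 38.4 ± 10.8 and 43.5 ± 16.4 CPM. Sema3a, a classic repellent of sensory axons, was found in DP/fibroblast cells (33.8 ± 53.2) and melanocytes (15 ± 9.73) and was below 1 CPM in each keratinocyte type. The DP/fibroblast mean rested on 10 UMIs, 6 of them from 17 cells at 4 h. The 4 d library, with 118 of the 198 DP/fibroblast cells, had no UMI of Sema3a in them.

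Membrane-bound semaphorins differed by member in their levels in keratinocytes, immune cells, melanocytes and DP/fibroblast cells. Sema6d measured 429 ± 157 CPM in the T-receptor cluster, 184 ± 106 in T cells and 107 ± 38.4 in Langerhans cells, and at most 0.938 ± 0.787 in the OB, uHF and IFE types. Its level in the T-receptor cluster was 285, 550.4, 521, 632, 319.6 and 268 CPM in time order. The 3 middle libraries were thus above both ends of the series. Sema4c shared that distribution in part, with 74.9 ± 26.9 CPM in the T-receptor cluster, while Sema7a was highest in Langerhans cells at 26.1 ± 16.9. Sema4d, the ligand of plexin B1 and known from lymphocytes, was highest in T cells at 54.8 ± 26.7 CPM, a type with 7 cells in the 0 h library. Sema5a measured 99 ± 20.6 CPM in OB3, 57.9 ± 14.6 in uHF.B and 52.4 ± 14.2 in IFE.B, against 5.48 ± 2.15 in OB2. It was also at 42.4 ± 5.89 CPM in melanocytes and at 95.5 ± 105 in DP/fibroblast cells. Sema6a was at 41.9 ± 19.3 CPM in OB3, 24.9 ± 9.38 in melanocytes and 0.198 ± 0.242 in IFE.B. In types with fewer cells it was at 64.9 ± 37.6 CPM in DP/fibroblast cells, 60.9 ± 43.3 in IRS3 (n = 4) and 59.4 ± 48.9 in IB. Sema4a (31.2 ± 6.48) was highest in IFE.G among types with at least 20 cells in each library, Sema4b (37.5 ± 9.46) in IFE.B and Sema4g (15.9 ± 9.27) in OB2. Sema6b reached 39.1 ± 48.4 CPM in DP/fibroblast cells, of which single libraries held as few as 8. Sema3g (13.5 ± 11.4 in DP/fibroblast cells) and Sema4f (9.4 ± 10.8 in T cells) stayed below 20 CPM in every type.

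The receptors for these cues ranged from broad to restricted. Plxnb2 was present in all OB, uHF and IFE types, from 46.9 ± 13.7 CPM in OB3 to 107 ± 42.4 in uHF.SB. Plxnb1 measured 34.4 ± 15.1 CPM in OB1 and 32.5 ± 5.33 in IFE.B, values closer than their spread. Plxna2 was concentrated in OB2 (98.2 ± 50.1) and OB1 (86.5 ± 83.9) and was at 16.5 ± 12.5 in OB3. Plxnc1, the receptor of semaphorin 7A, measured 111 ± 34.6 CPM in melanocytes and 95.2 ± 20.2 in Langerhans cells, and at most 3.38 ± 2.74 in any other type with at least 20 cells per library. Plxna1 was highest in Langerhans cells (65.6 ± 40.8), and Plxnd1, the receptor of semaphorin 3E, reached 22.8 ± 6.54 CPM in the T-receptor cluster and 51.1 ± 37.4 in T cells, and also 49.7 ± 61.7 in DP/fibroblast cells, 20.5 ± 21.1 in melanocytes and 14.2 ± 7.59 in Langerhans cells, but 1.57 ± 1.57 or less in OB, uHF and IFE types. Plxna4 was measured in melanocytes (15 ± 10.2, 50 UMIs) and DP/fibroblast cells (26.3 ± 41.7). The latter mean rested on 7 UMIs, 5 of them from 14 cells at 16 h. Plxna3 was low, with its highest mean of 13.9 ± 2.79 CPM in OB2, Plxnb3 had 8 UMIs in all cells, and Plxna4os1 had 1.

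Of the neuropilins, Nrp2 had its highest levels in IRS1 (289.6 ± 46.3, n = 3 libraries, since the type had no cells before 2 d), DP/fibroblast cells (179 ± 178) and SG (166 ± 32). It was at 82.4 ± 34.4 CPM in the Col14a1 cluster and at 1.3 ± 0.751 in IFE.B. The SG name covered 1877 cells, and 519 at doubled clustering resolution. Nrp1 had means below 20 CPM in every type, the highest being 18.3 ± 19.5 in melanocytes. There it was 0, 0, 6.38, 25.1, 48.5 and 29.9 CPM in time order.

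Ephrins were present in follicle and epidermis, at levels that differed by member. Efnb2, a ligand of EphB receptors, measured 417 ± 67.9 CPM in OB3, 251 ± 33.1 in SG, 177 ± 59.5 in OB2 and 168 ± 39.9 in uHF.SB, against 44.2 ± 14 in IFE.B. Among types with at least 20 cells in each library, Efna5 was highest in OB2 (179 ± 21.3) and OB1 (105 ± 25.5), and Efna4 likewise in OB2 (73.5 ± 35.8) and OB1 (53.1 ± 20). Efna3 followed differentiation, from 14.1 ± 2.26 CPM in IFE.B to 56.3 ± 11.2 in IFE.SB and 199 ± 41.6 in IFE.G. Efna1 lay between 104 ± 51.7 and 117 ± 36.8 CPM in the 3 OB types and at 60 ± 27.1 in IFE.B, and Efnb1 between 78.6 ± 16.2 and 104 ± 17.4 in the OB types and at 37.6 ± 2.69 in IFE.B. In the T-receptor cluster, which is no keratinocyte type, Efnb2 was at 25.3 ± 11.4 CPM, Efnb1 at 20.6 ± 4.78 and Efna1 at 4.92 ± 3.91, and the part of free RNA from other cells in such values was not tested.

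Among types with at least 20 cells in each library, Epha2, Epha4, Epha1, Ephb6 and Ephb2 had their highest means in suprabasal or granular cells. In types with fewer cells, Epha4 was at 168 ± 60.4 CPM in IRS3 (n = 4, with 1 cell in the 16 h library), Epha1 at 74.7 ± 47.2 in IRS1 (n = 3) and Epha2 at 90.7 ± 45.6 in IB. Epha2, which is known in keratinocyte differentiation, measured 86 ± 16.6 CPM in IFE.SB and 57.6 ± 11.2 in IFE.B. Epha4 was at 133 ± 26.4 CPM in uHF.SB and 119 ± 42.1 in OB2, and Epha1 at 50.2 ± 15.7 in IFE.G and 35.7 ± 14 in uHF.SB. Ephb6, an Eph family member without kinase activity, measured 119 ± 31.7 CPM in IFE.G, 99.3 ± 40.6 in uHF.SB and 76.2 ± 26 in IFE.SB. Ephb2 was nearly limited to uHF.SB among the types with 20 cells per library, at 28.2 ± 3.89 CPM against 3.99 ± 3.68 or less elsewhere. Ephb3 (33.6 ± 20.6 in OB2) and Ephb4 (26.4 ± 11.1 in the Col14a1 cluster) were low and broad among the types with 20 cells per library. In types with fewer cells, Ephb3 was at 50.9 ± 45.1 CPM in IRS3 (n = 4) and 37.4 ± 21.1 in IB, and Ephb4 at 39.4 ± 33.6 in DP/fibroblast cells. Epha7 reached 53.3 ± 49.7 CPM in DP/fibroblast cells and 3.56 ± 2.43 at most elsewhere. The other Epha genes (Epha3, Epha5, Epha8 and Epha10) had 3 to 26 UMIs each in all cells.

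To ask how stem cell-rich bulge and epidermal progenitors differ, OB and IFE.B sums of the same 6 libraries were compared with edgeR's quasi-likelihood test with library as a block, called at a Benjamini-Hochberg adjusted p under 0.05 and at least 2-fold. Bulge cells carried more ephrin transcripts and another set of semaphorins than epidermal basal cells. Of 36 members tested, 23 were called, 18 higher and 5 lower in OB, beside 23.6% of all 13023 genes tested (14.2% higher and 9.44% lower). The median log2 fold was 0.98 over the members and -0.02 over all genes. By family, 7 of 8 ephrins and both neuropilins were higher in OB, 3 of 7 Eph receptors tested and 1 of 6 plexins were higher, and semaphorins went 5 higher and 5 lower of 13. Several members called, among them Nrp1, Efnb3, Sema3b, Sema6a, Sema6c and Ephb1, never exceeded 0.636 CPM in IFE.B. They could pass the filter on low counts only through OB, so their direction in these counts was largely set in advance. The same holds for Sema3e, at a median of 0.384 CPM in IFE.B with a maximum of 2.17 at 4 h. Since CPM uses plain totals and the test uses TMM factors, the median of all genes lay 0.21 above 0 without TMM. The split of all called genes was then 2291 higher and 937 lower, against 1848 and 1230 with TMM, while the members' counts were 18 and 5 in both.

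Sema3e had the largest fold of the members called. For Sema3e, Sema6a and Ephb1 the filter had largely set the direction, so the p-values below are no separate support for it. In OB it measured 214, 79.5, 72, 114, 79 and 92.2 CPM in time order, and in IFE.B it never exceeded 2.17. All 6 OB values were above all 6 IFE.B values. The log2 fold was 7.36 ± 0.55 (SE, edgeR adjusted p = 1.80e-05). Sema6a measured 6.39, 4.01, 9.58, 34.2, 36.1 and 20.2 CPM in OB from 0 h to 6 d and at most 0.636 in IFE.B. The groups did not overlap, and the log2 fold was 6.46 ± 0.39 (edgeR adjusted p = 2.49e-06). Ephb1, a receptor of B ephrins, was at 6.96 ± 6.82 CPM in OB and 0.0648 ± 0.0967 in IFE.B (log2 fold 6.27 ± 0.56, edgeR adjusted p = 2.89e-05).

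Of the 7 ephrins called, 6 were higher in OB in each library, at smaller folds than these semaphorins. Efnb2 in OB was 190.4, 107, 140.1, 248, 155 and 211 CPM in time order, and in IFE.B 62.6, 21.9, 40, 53.5, 47.8 and 39.2. Every OB library was above every IFE.B library, with a log2 fold of 1.78 ± 0.13 (edgeR adjusted p = 9.42e-06). Efna4 (2.07 ± 0.16), Efna3 (1.81 ± 0.13), Efna2 (1.63 ± 0.24), Efna5 (1.26 ± 0.17) and Efnb1 (1.11 ± 0.12) were each higher in OB in 6 of 6 libraries. Efnb3 (2.77 ± 0.93, edgeR adjusted p = 0.0395) rested on 42 UMIs, was higher in 4 libraries and lower in 2, and was lost without the 4 h library (adjusted p = 0.0684) or the 2 d library (adjusted p = 0.0758). Efna1 was higher in 6 of 6 libraries at a log2 fold of 0.62 ± 0.15, under the 2-fold limit. Nrp2 (3.37 ± 0.50), Nrp1 (2.43 ± 0.64), Plxna2 (1.75 ± 0.33), Epha4 (1.24 ± 0.12) and Ephb6 (1.11 ± 0.14) were also higher in OB in each library. Sema3b (4.49 ± 0.58, at 2.03 ± 2.36 CPM in OB), Sema4g (3.72 ± 0.29) and Sema6c (3.04 ± 0.50) completed the higher group. Counting the Col14a1 cluster as OB left Epha4 at 0.97 ± 0.14 and Ephb6 at 0.71 ± 0.16, below the limit.

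**Figure D2:**
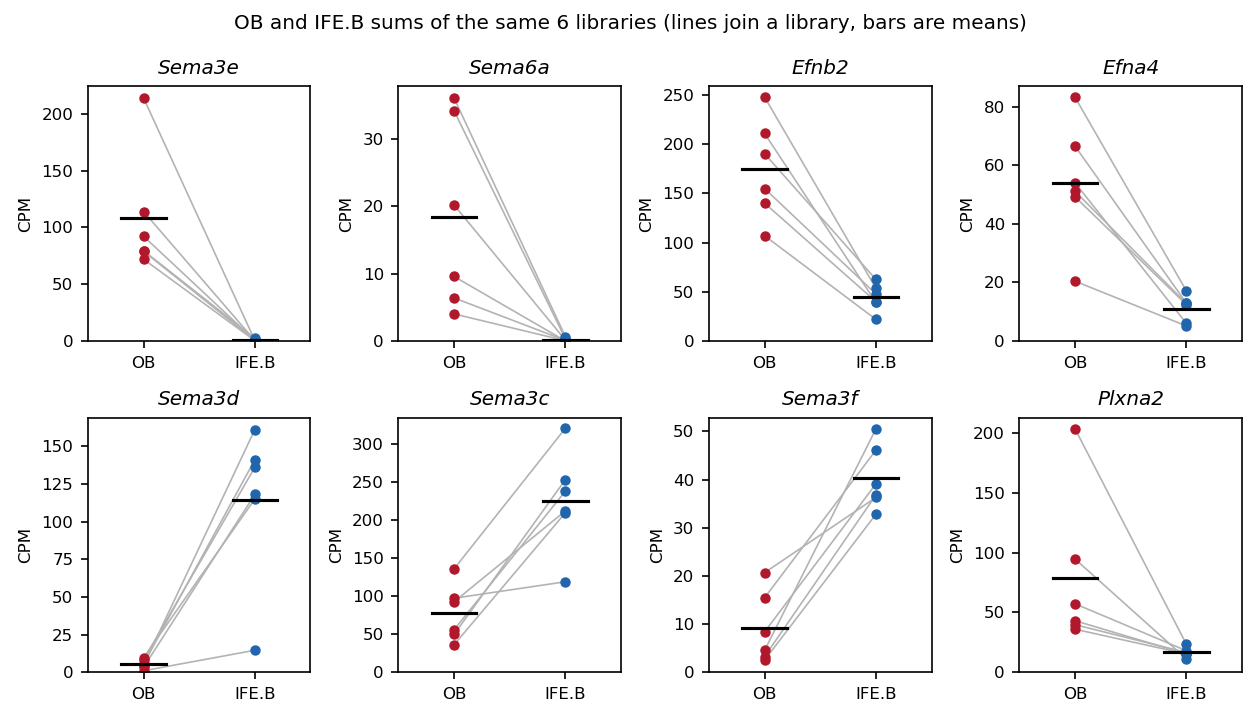
CPM in OB and IFE.B sums of the 6 libraries for 8 members, each point a library, lines joining the sums of 1 library and bars at the mean. All OB points lie above all IFE.B points for Sema3e, Sema6a, Efnb2, Efna4 and Plxna2, and all lie below for Sema3d and Sema3f, while the 4 h IFE.B value of Sema3c (119) falls among the OB values.

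Semaphorins of the epidermis gave the lower group. Sema3d in IFE.B was 115, 14.7, 118, 136, 161 and 141 CPM in time order, and in OB 9.79, 1.09, 3.48, 8.42, 4.69 and 5.71. OB was lower in 6 of 6 libraries, also at 4 h, when both were at their lowest (log2 fold -4.70 ± 0.25, edgeR adjusted p = 1.55e-06). Sema3f (-2.55 ± 0.36), Sema4d (-2.20 ± 0.33), Sema3c (-1.84 ± 0.33) and Sema4b (-1.27 ± 0.18) were lower in each library as well. Among receptors not called, Plxnb2 was lower in OB in 6 of 6 libraries at a log2 fold of -0.68 ± 0.12, and Epha1 had a difference of 0.05 ± 0.19.

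**Figure D3:**
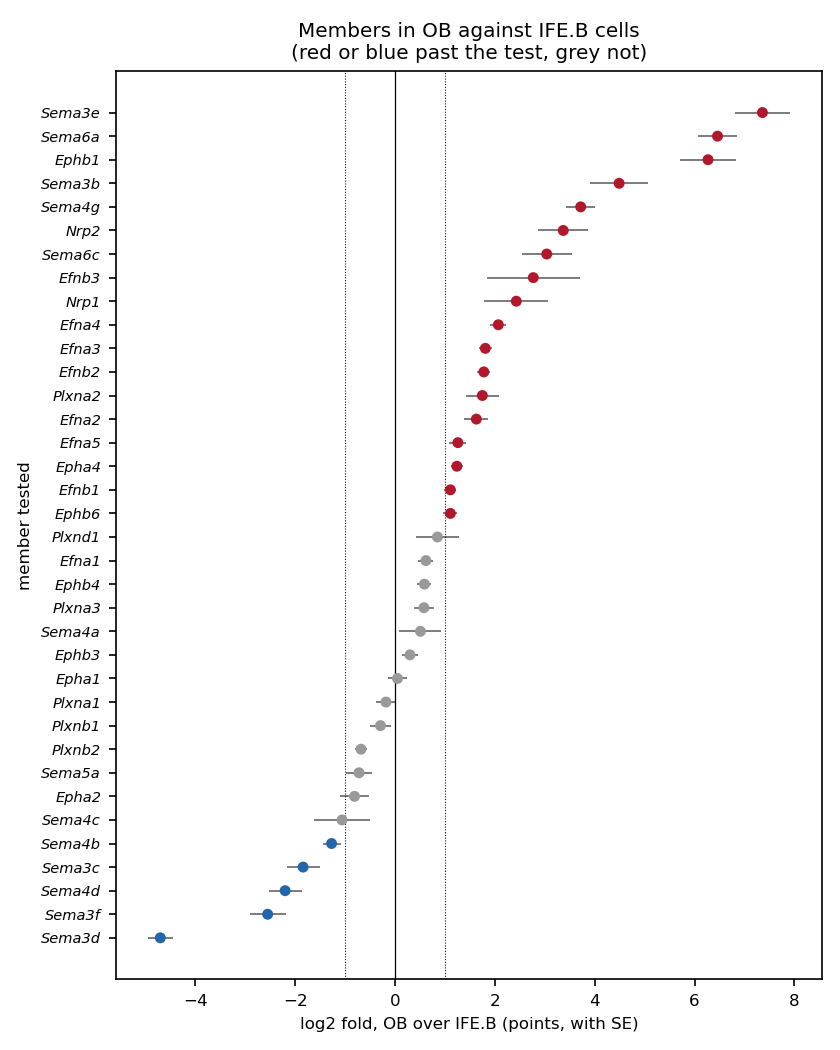
Log2 fold of OB over IFE.B (points) with its SE (lines) for the 36 members tested, over 6 libraries. Red and blue points passed the test and the 2-fold limits (dotted lines), with 18 to the right and 5 to the left, from 7.36 for Sema3e to -4.70 for Sema3d.

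Within the bulge, OB3 was set against OB1 in the same way. OB3 cells had more Sema3e, Efnb2, Sema6a and Sema3d and less Plxna2, Sema3c and Efna5. These 7 of 30 members tested were called, 4 higher and 3 lower, beside 6.42% of 9753 genes (2.89% higher and 3.53% lower). Efnb2 in OB3 was 536, 327, 411, 426, 393 and 408 CPM from 0 h to 6 d against 70.6 to 156 in OB1, with no overlap (log2 fold 1.83 ± 0.11, edgeR adjusted p = 9.12e-12). Sema3d (3.75 ± 0.35), Sema3e (1.51 ± 0.12) and Sema6a (1.56 ± 0.39) were higher in OB3 in 6 of 6 libraries. Sema3d never exceeded 2.38 CPM in OB1 and could pass the filter on low counts only through OB3. Its direction was thus largely set in advance. Plxna2 (-2.16 ± 0.34), Sema3c (-1.69 ± 0.34) and Efna5 (-1.08 ± 0.15) were lower in 6 of 6. Without the library block 3 members were called, and Sema3c lost its call without the 16 h (adjusted p = 0.0521), 4 d (0.0501) or 6 d (0.0632) library, as Sema6a did without 4 d (0.0597).

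Suprabasal and basal cells were compared next, in epidermis and upper follicle. Both differentiating layers had more Efna3, Ephb6 and Sema4g and less Sema5a and Sema3c than their basal layer. In the epidermis 5 of 30 members tested were called, 3 higher and 2 lower, beside 18.9% of 12515 genes (7.15% higher and 11.7% lower). In the upper follicle 13 of 31 were called, 9 higher and 4 lower, beside 23.3% of 12229 genes (10.9% higher and 12.4% lower). All 5 epidermal calls were also follicle calls in the same direction, where they made up 38.5% of the list. The same overlap was not counted over all genes, so it is not read as a trait of the members. Without TMM the median of all genes moved from -0.00 to -0.14 in the epidermis and from -0.02 to -0.19 in the follicle. All called genes of the follicle then split 1082 higher and 1873 lower, against 1331 and 1517, and the members 7 higher and 6 lower.

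Sema5a, a transmembrane semaphorin with thrombospondin repeats, differed most in the epidermis, with 7.01 ± 4.2 CPM in IFE.SB and 52.4 ± 14.2 in IFE.B (log2 fold -2.95 ± 0.27, edgeR adjusted p = 6.71e-05). In the upper follicle it was 15.7 ± 8.4 against 57.9 ± 14.6 (-1.83 ± 0.15). Efna3 was 2.13 ± 0.12 higher in log2 in IFE.SB and 2.71 ± 0.12 higher in uHF.SB, each in 6 of 6 libraries. Sema3c was lower by similar amounts, at -1.17 ± 0.07 and -1.30 ± 0.18. Ephb6 (1.99 ± 0.07 and 1.44 ± 0.09) and Sema4g (1.99 ± 0.33 and 4.03 ± 0.37) were higher in both.

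Other follicle differences were called there and not in the epidermis, and the difference between the tissues was not tested. Ephb2 was 3.26 ± 0.36 higher in log2 in uHF.SB, Sema6a 1.52 ± 0.16, Epha1 1.27 ± 0.12, Epha4 1.19 ± 0.07, Efna4 1.14 ± 0.14 and Sema4a 1.06 ± 0.14. Without TMM, Efna4 (0.97 ± 0.15) and Sema4a (0.89 ± 0.14) were below the 2-fold limit, as Sema4a also was without the 16 h library (0.92 ± 0.13). Sema3e (-1.31 ± 0.27) was lower, at 2.36 ± 1.42 against 5.73 ± 1.89 CPM. Nrp2 (-1.02 ± 0.24, edgeR adjusted p = 0.00474) was lower in 5 of 6 libraries, and its fold was under the limit when any 1 of the last 4 libraries (16 h onwards) was left out, at -0.99 to -0.89.

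Time was examined last. In a spline over hours fitted by edgeR to the 6 sums of a type, 0 of 32 members tested in OB, 0 of 30 in uHF.B and 0 of 34 in IFE.B passed an adjusted p of 0.05, and the percentage of all genes called was 0 in each. At an unadjusted p under 0.05 there were 560, 251 and 78 genes of any kind in the 3 types, and DESeq2 called 204, 43 and 20 genes, with 1 member, Plxna2 in OB. The fit left 2 residual degrees of freedom, so values per library are given.

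The 4 h library stood apart from its neighbours in many genes. In IFE.B, 19.2% of genes with at least 10 CPM at 0 h or 4 h were at least 2-fold higher and 17.5% at least 2-fold lower at 4 h than at 0 h, compared with 1.13% and 1.46% at 6 d against 0 h. Of 23 members counted in the same way, 2 (8.7%) were higher and 7 (30.4%) lower at 4 h, and none of 22 passed 2-fold in either direction at 6 d. In OB at 4 h, 2 of 21 members were higher (beside 17.7% of all genes) and 6 lower (beside 19.1%). In uHF.B 4 of 25 were higher (beside 21.4%) and 8 lower (beside 17%), and in uHF.SB 5 of 23 were higher (beside 19.9%) and 4 lower (beside 13.2%). In IFE.SB 4 of 21 were higher (beside 22.3%) and 4 lower (beside 12%). More members were thus lower than higher at 4 h in OB, uHF.B and IFE.B, and not in the suprabasal types. These counts rest on few members and were not tested against the shares of all genes. At 6 d, uHF.B had 1 of 22 members higher than at 0 h (beside 7.22%) and 3 lower (beside 5.68%), uHF.SB 3 of 25 higher (beside 5.63%) and 3 lower (beside 9.99%), and IFE.SB none of 20 in either direction (beside 1.61% and 1.5%). With 1 library at 4 h, its mice, its preparation and the time after depilation cannot be told apart.

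Sema3d and Ephb6 were lowest at 4 h. Sema3d in IFE.SB was 137 CPM at 0 h, 10.7 at 4 h (95% Poisson interval 8.83 to 12.8), and then 126, 126, 135 and 125 from 16 h to 6 d. The 4 h value was 12.8-fold under 0 h there and 7.84-fold under it in IFE.B, while the other 5 libraries lay at 125 or above in IFE.SB and at 115 or above in IFE.B. Ephb6 in OB was 74.5, 12.8, 48.3, 47.5, 81.1 and 82.1 CPM in time order. Its 4 h value was below that of 0 h by 5.84-fold in OB, 5.97-fold in uHF.B, 4.76-fold in uHF.SB, 4.09-fold in IFE.B and 2.79-fold in IFE.SB, and it was the lowest of the 6 in all these types. Epha1 was likewise lower at 4 h, by 3.17-fold in OB, 2.88-fold in uHF.B and 2.24-fold in IFE.SB, as was Efna4, by 2.5-fold in OB and in IFE.B.

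Several members were higher at 4 h than at 0 h in some types, among them Efna5 and Nrp2. Efna5 in IFE.B was 39.6, 81.6, 32.4, 30.3, 28.2 and 35.6 CPM in time order, and in IFE.SB it went from 28.5 to 97.2 and back to 22. In OB the 0 h and 4 h values of Efna5 were 129 and 128. Nrp2 in uHF.B was 5.89, 64.6, 14.5, 12.3, 12.4 and 9.15 CPM, 11-fold higher at 4 h than at 0 h, and in OB it was 3.41, 30.3, 52, 11.4, 11.1 and 6.51. OB thus had its highest Nrp2 at 16 h and uHF.B at 4 h. Sema4d was 3.26-fold higher at 4 h in IFE.B and 2.85-fold in IFE.SB. In uHF.B, Ephb2 was 8.89-fold higher at 4 h (11.2 against 1.26 CPM) and Sema5a 2.09-fold. Epha4 and Epha2 were also at their maximum at 4 h in OB, at 164 and 71.9 CPM.

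**Figure D4:**
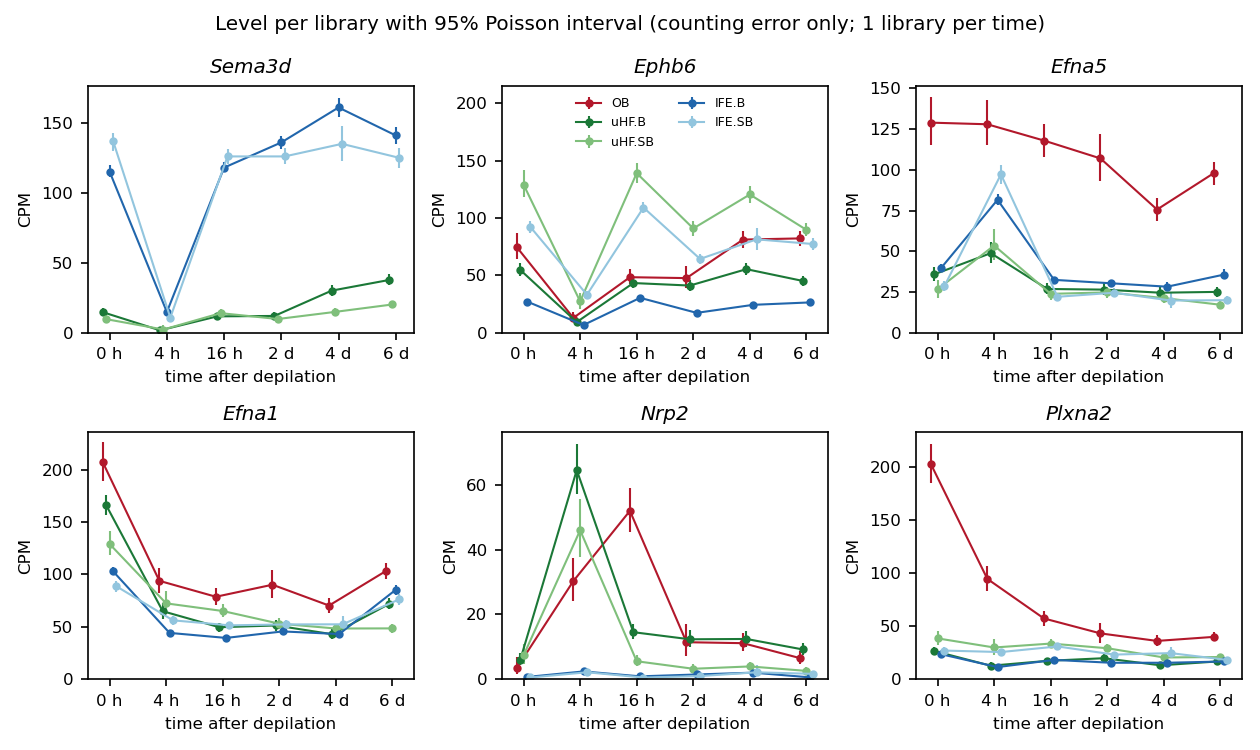
CPM of 6 members by time after depilation in OB, uHF.B, uHF.SB, IFE.B and IFE.SB sums, with 95% Poisson intervals that cover counting error only, and 1 library per time point. Sema3d (OB not drawn) and Ephb6 are lowest at 4 h, Efna5 is highest at 4 h in both IFE types, Nrp2 is highest at 4 h or 16 h in OB and uHF, and Efna1 and Plxna2 are highest at 0 h in OB.

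Efna1 and Plxna2 were highest at 0 h. Efna1 in OB was 207, 93.8, 78.6, 90.1, 70.2 and 103 CPM in time order, and it was also at its maximum at 0 h in uHF.B, uHF.SB, IFE.B and IFE.SB. By 6 d it was again within 1.21-fold of 0 h in IFE.B but 2.01-fold under it in OB. Plxna2 in OB was 203, 94.5, 57.2, 43.1, 36 and 39.8 CPM, 5.1-fold lower at 6 d than at 0 h, against 23.5 and 16.6 CPM at the same times in IFE.B.

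Other members of OB were higher in later libraries. Sema4a was 7.24, 2.55, 11.3, 20.3, 39.1 and 32.7 CPM in time order, and the Sema6a values above run the same way. Sema5a was 20, 23, 24.6, 60.4, 46.6 and 63.3 CPM, and Sema3f and Ephb1 went from 2.56 to 20.7 and from 0.852 to 18.6 between 0 h and 6 d. Of 28 members counted, 10 were at least 2-fold higher at 6 d than at 0 h in OB (35.7%, beside 9.56% of all genes) and 4 at least 2-fold lower (14.3%, beside 4.63%). On a scale of log2(hours + 1), edgeR called 12 members in OB, namely Sema3b, Sema3f, Sema4a, Sema4c, Sema4g, Sema6a and Ephb1 with a rising linear trend, Efna1, Plxna2, Sema3c and Sema3e with a falling one, and Nrp2, whose curve has its peak at 16 h, beside 15% of all 11158 genes (7.03% rising and 7.98% falling). With 2 d to 6 d set against 0 h to 16 h, Sema6a alone was called (log2 1.99 ± 0.37, edgeR adjusted p = 0.0483), beside 1.02% of 10734 genes (0.857% higher and 0.168% lower). Sema3c was the 1 member whose late minus early change differed between OB (-1.36) and IFE.B (0.14), beside 1.08% of genes.

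The makeup of OB, and of OB1 within it, differed between these libraries. At 0 h, 4 h and 2 d, OB1 made up 64%, 71.9% and 42% of OB cells. The shares of OB2 were 20%, 18% and 35.2%, and those of OB3 15.9%, 10% and 22.8%. The part of these shares in the OB values was not tested. The Cd34 cluster held 94% of OB1 cells at 0 h and then 37.3%, 50.3%, 50.6%, 21% and 33.6% in time order, and the Scrg1 cluster the rest (17 cells at 0 h). Within the Cd34 cluster, Plxna2 was 263, 128, 97.4, 48.8, 110.5 and 65 CPM in time order, so 0 h was highest there too. Sema3e in that cluster was 191 CPM at 0 h and 89.3 to 126 later, and 25.6 to 70.7 in the Scrg1 cluster.

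Between the 2 OB1 clusters, Sema6a from 2 d and Nrp2 at 4 h and 16 h were higher in the Scrg1 cluster. OB3 had higher means of both than OB1 as a whole. Sema6a was at 41.9 ± 19.3 CPM in OB3 and 14.5 ± 14.3 in OB1, and Nrp2 at 41 ± 25.7 and 18.3 ± 24.7. Sema6a in the Scrg1 cluster was 1.83, 4.49, 41.4, 36 and 21.7 CPM from 4 h to 6 d, and in the Cd34 cluster it was 5.2 or less except at 2 d (19.5). Nrp2 in the Scrg1 cluster was 42 CPM at 4 h and 121 at 16 h, against 10.3 and 6.01 in the Cd34 cluster. Sema4a was higher late in both, at 40.3 and 36.3 CPM at 6 d, and Ephb6 was lowest at 4 h in both, at 21.8 and 5.48 CPM.

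**Figure D5:**
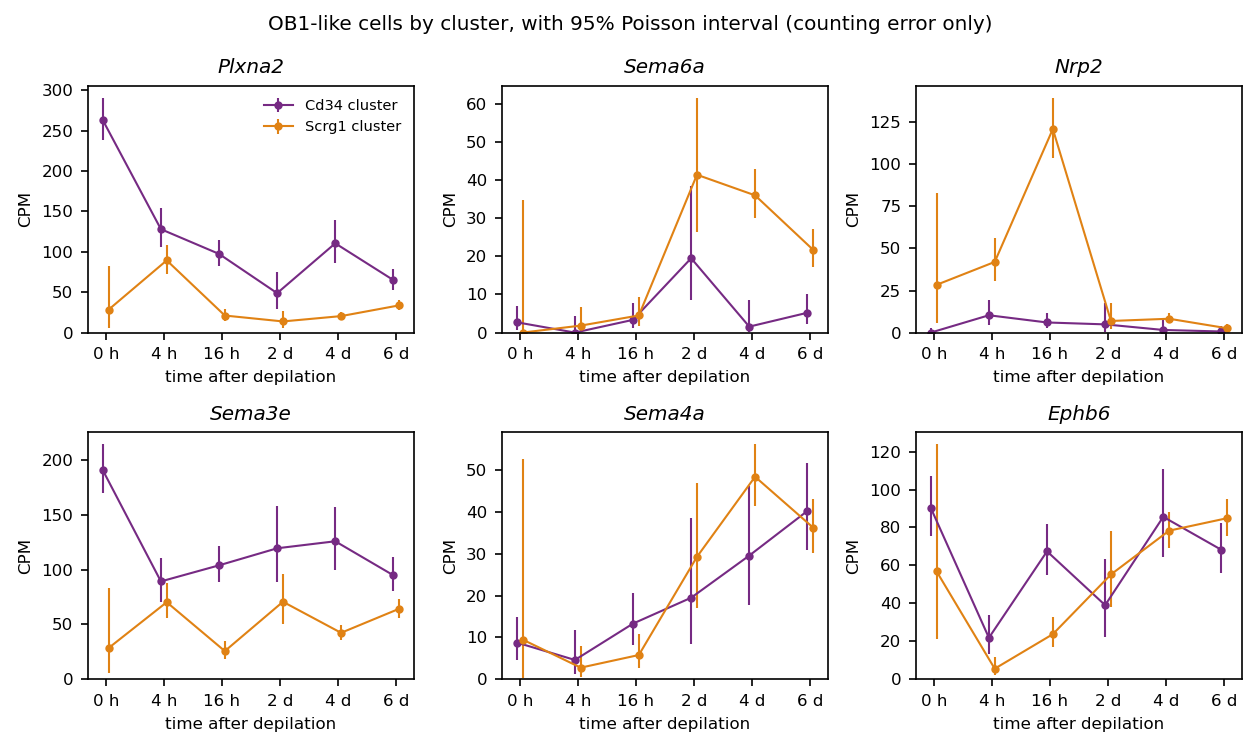
CPM of 6 members by time after depilation in the 2 clusters of OB1 cells, with 95% Poisson intervals for counting error. Plxna2 and Sema3e are higher in the Cd34 cluster at 0 h, Nrp2 is highest in the Scrg1 cluster at 16 h, Sema6a is highest in the Scrg1 cluster from 2 d, Sema4a is higher late in both and Ephb6 is lowest at 4 h in both. The Scrg1 cluster has 17 cells at 0 h.

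Downstream and partner genes were counted from lists drawn up with the members. Of 22 plexin and neuropilin effectors tested, 10 were higher and 0 lower in OB than in IFE.B (median log2 fold 0.93, against -0.02 over all genes, of which 14.2% were higher and 9.44% lower). They included Farp1, a Rac exchange factor at plexin A (28.5 ± 14.9 against 0.409 ± 0.442 CPM), the kinase Fyn (5.38 ± 0.47) and the collapsin response mediator Dpysl5 (4.28 ± 0.64), as well as Dpysl4, at 0.614 ± 0.749 against 0.00613 ± 0.015 CPM. Of those higher, Dpysl2, Dpysl3, Dpysl4, Dpysl5, Farp1, Fyn and Fes had means of 0.467 CPM or less in IFE.B. These genes could pass the filter on low counts only through OB. Of 17 Eph and ephrin effectors, 4 were called (23.5%, beside 23.6% of all genes). Higher were 3, namely the EphA-bound exchange factor Ngef (1.99 ± 0.60), the adaptor Nck2 (1.90 ± 0.32) and the PDZ protein Grip1 (1.59 ± 0.22), and Vav3 was lower (-1.24 ± 0.18). Of 5 VEGF ligands and receptors tested, Pgf (2.06 ± 0.67) was higher and Vegfd (-2.73 ± 0.44), Vegfa (-1.25 ± 0.17) and Flt1 (1.78 ± 1.33 CPM in IFE.B, 0.071 ± 0.174 in OB) were lower. Of 7 genes of other guidance families, Slit3 (2.93 ± 0.24), Robo2 (1.92 ± 0.22) and Neo1 (1.32 ± 0.20) were higher and Robo1 (-3.34 ± 0.29) was lower.

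The same lists counted 1 higher and 4 lower of 19 plexin effectors in IFE.SB against IFE.B, and 4 and 4 of 20 in uHF.SB against uHF.B. Beside these and the following counts, 7.15% of all genes were higher and 11.7% lower in IFE.SB, and 10.9% higher and 12.4% lower in uHF.SB. The RAS family gene Mras was lower in both (-2.35 ± 0.21 and -2.23 ± 0.25) and Dpysl3 higher in both (2.33 ± 0.34 and 2.89 ± 0.27). Of 17 Eph effectors, 0 were higher and 4 lower in IFE.SB and 3 higher and 2 lower in uHF.SB, with Sdcbp, a PDZ protein that binds B ephrins, lower in both (-1.28 ± 0.08 and -1.29 ± 0.12). Of 4 VEGF genes tested in each, 0 were higher and 3 lower in IFE.SB and 1 was higher and 2 lower in uHF.SB. Vegfd and Vegfb were lower in both, at -1.20 ± 0.17 and -1.13 ± 0.10 in the epidermis and -1.83 ± 0.15 and -1.44 ± 0.14 in the follicle. In the other guidance families 1 was higher and 3 lower of 7 in IFE.SB, and 1 of 6, the netrin receptor Unc5b (1.26 ± 0.21), was higher in uHF.SB. Within the bulge, Robo2 (3.01 ± 0.30) and Unc5b (1.75 ± 0.39) were higher in OB3 than in OB1 and Slit3 (-2.57 ± 0.43) lower, of 5 genes tested from the other guidance families (beside 2.89% and 3.53% of all genes).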

How the data were processed

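The authors aligned 3' single-cell reads to mm10 with Cell Ranger 6.1.2, per the labels, and deposited UMI counts per gene and barcode, not normalized; the annotation and the treatment of intron reads are not given in the sources used here. Barcodes with 500 to 7000 genes and at most 10% mitochondrial UMIs were kept, and the top Scrublet scores were removed as doublets (0.8% per 1000 barcodes), since its own threshold called almost none in 5 libraries. Cells were integrated and clustered with Seurat 5.3.0 (2000 variable genes, 30 components) at resolution 0.2, and follicle cells again at 0.4, leaving out 518 genes: 131 of the members, lists and cycling genes and 387 correlated with cycling above 0.2. A cluster was named where at least 3 markers passed and their mean log2 fold reached 0.5, a limit set after seeing the data.

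Counts were summed per type and library and tested with edgeR 4.0.16 (TMM, filterByExpr, quasi-likelihood, R 4.3.3): a spline with 3 degrees of freedom over time, and cell types with library as block. Between cell types the filter on low counts took both types together, so a gene near absent from either could enter only through the other. On simulated counts it recovered 153 of 200 genes changed by 2 in log2 for the OB time course and 186 for OB against IFE.B. Those counts had a fixed dispersion not taken from the data, and their time changes were linear in hours. The recovery therefore does not give the power in the real libraries. DESeq2 1.42.0, other factors, filters, clusterings and left-out libraries were alternatives. With library as block, p-values of cell type contrasts measure how far the difference between 2 types varied from library to library. Libraries are separate mice at separate times, so spread between mice at 1 time is not measured. Poisson intervals cover counting error only. Named were members reaching 20 CPM in 1 type, all called members, and up to 4 called genes per list. Members and lists were chosen with earlier results of these data known. Gene symbols were used as deposited, and promoter windows came from RefSeq (GRCm38.p6).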

Additional observations from a re-analysis of the deposited data

Results flagged for a closer look

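Sema3c was the member whose change over time differed between bulge and epidermis in a test of the difference itself. Its mean over 2 d to 6 d against 0 h to 16 h was -1.36 in log2 in OB and 0.14 in IFE.B, a difference of -1.61 ± 0.29 in a joint fit (edgeR adjusted p = 0.0324, 141 of 13023 genes called). Sema3c in OB was 136, 97.4 and 92.7 CPM in the 3 early libraries and 56, 36.3 and 49.9 in the 3 late ones, so every late value was below every early one. In IFE.B it was 320.4, 119 and 212 CPM early and 238, 209.6 and 253 late, with overlap. Within OB1, the Cd34 cluster had 194, 121 and 120.1 CPM early and 151, 132 and 100.1 late, and the Scrg1 cluster 114, 117 and 108 early and 19, 23.8 and 45.7 late. The part of the OB1 makeup, which moved over the same libraries, was not tested.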

How the results depend on the processing

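Time points could not be compared in pairs because each is 1 library and the labels give no replicate numbers. Between cell types the library served as block, so those contrasts were paired within libraries. In OB over time, members called numbered 12 on log2(hours + 1), 6 on the rank of time, 1 with late against early libraries and 1 with DESeq2, against 0 on hours, and 0 to 13 with a library left out (13 without 0 h, when 1913 genes were called, and 2 without 4 h). OB3 against OB1 gave 3 members without the library block and 5 to 9 with a library left out. Nrp2 in OB over time had a linear trend of -1.90 on hours, 0.17 on log2(hours + 1) and 0.13 with the Col14a1 cluster, an alternative chosen after seeing the data, as was leaving out TMM. The cause of these shifts was not tested. Member counts with a library left out were 21 to 23 for OB against IFE.B, 5 to 7 for IFE.SB against IFE.B and 12 to 15 for uHF.SB against uHF.B, and 0 for the time courses in uHF.B and IFE.B. Of the alternatives for single members between cell types, 616 kept direction and call and 22 kept direction only. With all barcodes the summed member level was 1088, 1001, 1070 and 1109 CPM in the last 4 libraries, from 16 h on. Few cells limit IB, IRS1, IRS3, SG, T cells and DP/fibroblast cells, and OB1 in the Scrg1 cluster at 0 h.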

Other observations

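Sema3e, near absent from epidermis, had 68 UMIs in IFE.B at 4 h (2.17 CPM) against 6 to 10 in each other library (0.213 to 0.477 CPM).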
